A study of Mus musculus with 8 samples.

Results

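Adipose tissue of obese mice that lack interleukin-6 (IL-6) was compared with that of obese wild-type mice on Illumina bead arrays, which measure the RNA of a whole tissue with 1 sample per array. The comparison takes the 3 arrays labelled IL6 knock-out (IL6_KO) and the 2 labelled wild type (WT), 5 of the 8 arrays of the series. All mice were on the C57Bl6 strain background, were obese on a high-fat diet and had fasted for 5 h. The WT mice were 24 weeks old and the IL6_KO mice 25 weeks old. The other 3 arrays came from sgp130Fc transgenic mice of 26 weeks, which carry a decoy receptor and whose arrays serve here for the spread and as another modified genotype. Age differs between the genotypes and not within them, so genotype and age cannot be told apart. The fat depot, the sex and the promoter of the transgene were not used here. Nothing in the labels says that the replicates came from separate animals, so the p-values reflect only how these arrays vary, which may in part be technical.

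IL-6 is a cytokine that fat cells, stromal cells and macrophages of fat release, and more of it circulates in obesity. It binds a specific receptor chain, encoded by Il6ra, on the membrane or in soluble form, and the complex joins gp130, encoded by Il6st. Janus kinases then activate the transcription factor STAT3, which induces genes such as the feedback inhibitor Socs3. A knock-out removes both routes, whereas sgp130Fc, a soluble gp130 fused to an antibody Fc part, captures IL-6 only with its soluble receptor.

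Adipose markers were present. On all 5 arrays of the comparison the log2 normalised intensity (here called the level) of Lep, which encodes leptin, lay between 12.99 and 14.34. That of Adipoq, which encodes adiponectin, lay between 12.15 and 13.63. The probe of the fatty acid binding protein Fabp4 was not above background on any of the 5 arrays. Median intensities before normalisation lay between 109.1 and 145 on the 8 arrays, and between 48.6% and 52.1% of the 25697 probes were above background. The number of arrays limits the precision, with a median standard error of 0.21 for a log2 difference between IL6_KO and WT.

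IL6_KO replicate 2 stood apart from the other 7 arrays. Its mean correlation with them over probes was 0.944, against 0.964 to 0.973 for the others. It carried neutrophil transcripts that were near background elsewhere. S100a9, a calcium-binding protein of neutrophils, lay at 10.98 on that array and at 5.28 and 5.80 on the other IL6_KO arrays. Ltf, which encodes lactoferrin, lay at 9.30 against 4.81 and 5.50, and Camp, the antimicrobial peptide cathelicidin, at 8.60 against 4.75 and 4.70. Of 9 tested neutrophil genes 0 passed and all 9 had positive differences between IL6_KO and WT, with a median of 0.59, and 5 of the 9 with a median of 0.19 without this array. The same array had the least adipocyte RNA, with the lipid-droplet coat gene Plin1 at 6.95 against 8.65 and 8.92. Medians of gene groups without this array are given beside those with it. In bulk tissue, fewer cells of a type and less RNA per cell cannot be told apart.

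Il6 itself lay near background. Its probe read 4.40 and 4.47 in WT, 5.17, 5.06 and 5.16 in IL6_KO, and 4.78, 4.62 and 4.46 in sgp130Fc. It was above background on 2 arrays, both of them IL6_KO, and the IL6_KO level was at least 1.06-fold higher (adjusted p = 0.093). Whether the probe falls inside the deletion was not known, and its reading is no check of the genotype. The receptor genes did not pass: Il6ra differed by 0.26 (adjusted p = 0.679) and Il6st by -0.08 (adjusted p = 0.816).

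A probe passed when its p-value in a linear model of all 8 arrays, adjusted by the Benjamini-Hochberg method over the 14141 tested probes, was under 0.05. Of these probes 35 passed (0.248%), 10 with higher levels in IL6_KO (0.0707%) and 25 with lower levels (0.177%). At an unadjusted p under 0.05 there were 2917. The 35 stand for 31 named genes, 10 higher and 21 lower, and for 1 probe with no gene name, ILMN_3136638, which fell by 3.96 on the log2 scale. In all 35 the IL6_KO arrays lay wholly above or wholly below the WT arrays, as they did for 38.6% of all tested probes. The higher genes include products of macrophages. The lower genes include a metabolic kinase subunit, lipid enzymes, targets of glucocorticoid and FOXO signalling, and proteins of blood vessels and red blood cells.

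**Figure D1:**
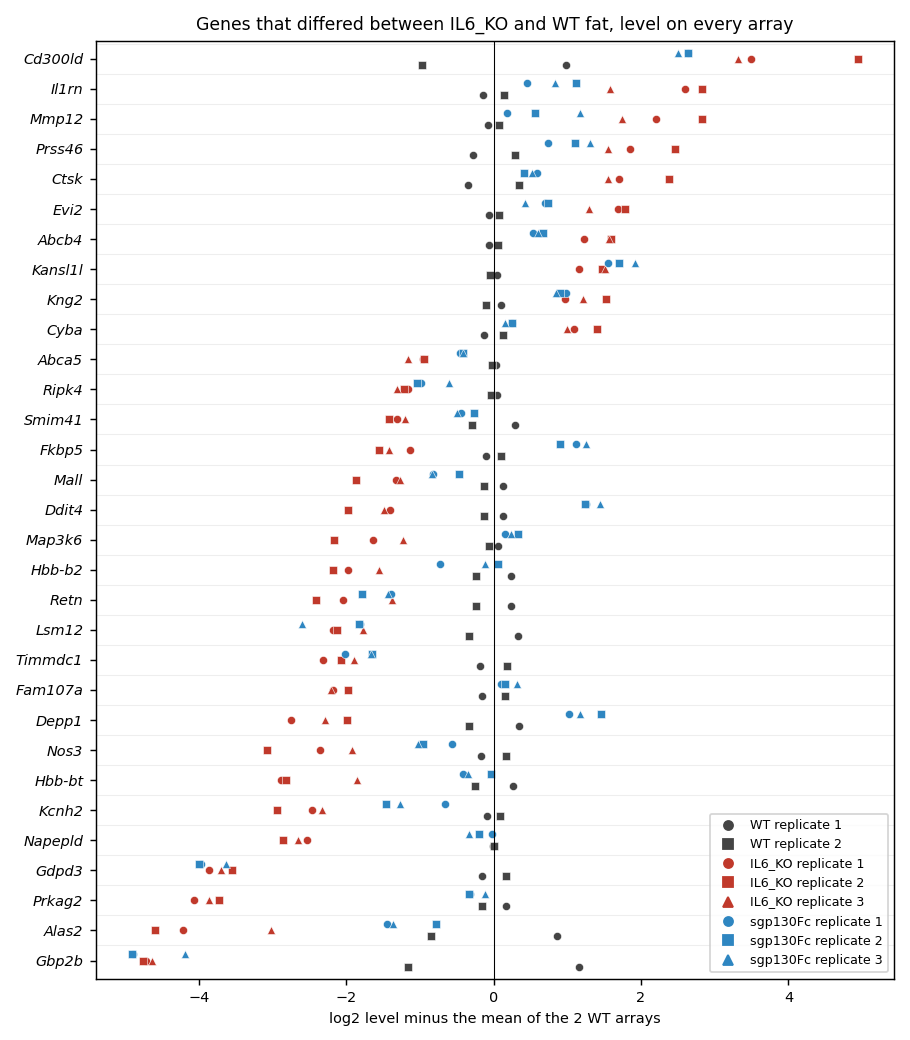
Level of the 31 genes that differed between IL6_KO and WT fat, on each of the 8 arrays, as the log2 normalised intensity minus the mean of the 2 WT arrays (horizontal axis), with 1 row per gene and the sgp130Fc arrays in blue. The IL6_KO points of Prkag2, Napepld and Fam107a lie far from the WT and sgp130Fc points, whereas those of Gdpd3, Timmdc1 and Gbp2b lie near the sgp130Fc points and away from WT.

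The promoters of 5 genes are shown because the results return to them: the 4 genes of the glucocorticoid and FOXO group that fell, which moved together, and the red cell gene Alas2. Each is the RefSeq window from 250 bases before to 50 after a transcript start in GRCm38.p6, written 5′ to 3′ on the gene's strand. Capitals mark AGAACA, the known half-site of the glucocorticoid receptor. They also mark AGATAA, which GATA factors are known to bind. Both were read on either strand. The windows are chr14:8309730-8310029 (minus strand) for Fam107a, chr6:116650434-116650733 (plus strand) for Depp1, chr10:59951721-59952020 (minus strand) for Ddit4, chr17:28486100-28486399 (minus strand) for Fkbp5 and chrX:150547167-150547466 (plus strand) for Alas2. Fam107a has 3 windows: the one shown, one shifted from it by only a few bases with the same half-sites, and chr14:8317558-8317857 with 0 half-sites. The one shown was picked after the matches were seen.
Fam107a: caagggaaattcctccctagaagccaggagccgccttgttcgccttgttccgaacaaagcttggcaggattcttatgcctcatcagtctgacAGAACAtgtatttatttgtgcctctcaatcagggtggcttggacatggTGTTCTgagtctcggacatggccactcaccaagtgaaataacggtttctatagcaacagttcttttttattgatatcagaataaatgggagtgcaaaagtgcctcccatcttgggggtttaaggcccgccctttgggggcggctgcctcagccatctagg
Depp1: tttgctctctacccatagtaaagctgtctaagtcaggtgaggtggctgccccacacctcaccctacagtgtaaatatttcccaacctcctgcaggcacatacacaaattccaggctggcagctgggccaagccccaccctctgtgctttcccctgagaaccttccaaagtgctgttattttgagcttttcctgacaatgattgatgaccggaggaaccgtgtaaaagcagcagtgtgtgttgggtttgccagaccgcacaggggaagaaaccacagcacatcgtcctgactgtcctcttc
Ddit4: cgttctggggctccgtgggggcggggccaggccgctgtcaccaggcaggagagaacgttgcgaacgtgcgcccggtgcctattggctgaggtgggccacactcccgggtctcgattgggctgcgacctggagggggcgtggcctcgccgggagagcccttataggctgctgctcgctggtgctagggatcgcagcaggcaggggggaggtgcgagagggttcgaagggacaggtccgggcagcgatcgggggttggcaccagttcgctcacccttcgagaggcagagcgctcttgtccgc
Fkbp5: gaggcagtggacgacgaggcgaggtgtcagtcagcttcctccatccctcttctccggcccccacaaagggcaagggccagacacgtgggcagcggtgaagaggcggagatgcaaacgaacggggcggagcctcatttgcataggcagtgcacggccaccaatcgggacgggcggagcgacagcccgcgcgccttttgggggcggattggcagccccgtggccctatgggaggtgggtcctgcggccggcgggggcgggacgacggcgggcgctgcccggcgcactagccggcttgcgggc
Alas2: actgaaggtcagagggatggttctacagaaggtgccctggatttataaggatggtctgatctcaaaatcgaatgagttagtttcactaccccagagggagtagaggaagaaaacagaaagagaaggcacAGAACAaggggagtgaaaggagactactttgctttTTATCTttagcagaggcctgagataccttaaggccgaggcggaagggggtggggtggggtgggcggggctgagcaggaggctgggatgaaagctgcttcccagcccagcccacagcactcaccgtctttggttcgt
Of the 31 genes, 27 had such windows, 35 in all. The half-site AGAACA occurred in 12 of the 35 (34.3%) and in 19.0% of all 32851 windows. These 12 windows belong to 11 genes, since 2 of them are the overlapping Fam107a windows that hold the same half-sites. The windows of Depp1, Ddit4 and Fkbp5 held 0 half-sites. Of the 11 genes, Abcb4, Kansl1l, Ctsk, Prss46, Kng2 and Mmp12 rose, and Gdpd3, Fam107a, Hbb-bt, Alas2 and Smim41 fell. The GATA motif occurred in 3 of the 35 (8.57%) against 11.2% of all. The STAT motif TTCNNNGAA was in 0 of the 35 windows and in 8.30% of all windows, and the FOXO motif TGTTTAC in 1 (2.86%) against 3.65%. Both strands were searched and no 2 matches overlapped in the 35 windows. A match is a description of letters and not a binding site.

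A gene of the cell's energy sensor fell below background. Prkag2 encodes the gamma 2 regulatory subunit of AMP-activated protein kinase, which binds adenine nucleotides. Its level was 8.78 and 8.45 in WT and 4.55, 4.89 and 4.75 in IL6_KO, where no array was above background, so it was at least 12.1-fold lower (adjusted p = 7.15e-05). In sgp130Fc it lay at 8.29, 8.28 and 8.50, near WT and apart from IL6_KO (adjusted p = 2.46e-05). The other 8 tested genes of the kinase and its upstream activators did not pass. The share that fell was 11.1% of the 9 genes, against 0.194% of all genes by their brightest probe. The median over the 9 was -0.14 against a median of -0.003 over all 9803 tested genes. Without IL6_KO replicate 2 the median of the 9 was -0.0258, and it lay between -0.25 and -0.0258 with any 1 array left out. Prkag1, the gamma 1 subunit, which was picked after its values were seen, was 8.94 and 8.91 in WT and 8.92, 8.16 and 8.87 in IL6_KO, and the groups overlapped.

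Enzymes that cleave phospholipids fell as well. Gdpd3, a lysophospholipase D, lay at 10.51 and 10.83 in WT and at 6.81, 7.12 and 6.97 in IL6_KO, 13.1-fold lower (adjusted p = 8.23e-05). Its sgp130Fc levels of 6.70, 6.67 and 7.04 overlapped those of IL6_KO, and the difference between these genotypes was 0.16 (95% interval -0.22 to 0.54). Napepld, which releases N-acylethanolamines from membrane phospholipids, was 8.09 and 8.10 in WT and 5.56, 5.23 and 5.44 in IL6_KO, and fell 6.43-fold (adjusted p = 3.71e-04). Unlike Gdpd3, Napepld lay at 7.76 to 8.07 in sgp130Fc, above all IL6_KO arrays (adjusted p = 2.38e-04 for that difference). The brighter of its 2 probes fell by 1.91 (adjusted p = 0.0199). Of the 14 tested genes of N-acylethanolamine and lysophospholipid metabolism and signalling these 2 fell (14.3% against 0.194% of all genes by their brightest probe) and 0 rose, and 12 did not pass. The members of this group, as of all gene groups here, were chosen with earlier results of these data known. Such shares describe these data and test nothing. The median over the 14 was -0.0097, and 0.0107 without IL6_KO replicate 2. The cannabinoid receptor gene Cnr2, for example, differed by 0.90 (adjusted p = 0.109).

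Further lower genes act in membranes, mitochondria and signalling. Timmdc1, which helps assemble complex I of the respiratory chain, lay at 8.77 and 9.14 in WT, 6.64 to 7.06 in IL6_KO and 6.93 to 7.30 in sgp130Fc (IL6_KO minus WT -2.10, adjusted p = 0.00896). The lipid transporter Abca5 stayed at background on all 3 IL6_KO arrays and was at least 1.60-fold lower, and the kinase gene Ripk4 at least 1.69-fold lower. Mall, a MAL-family membrane protein, fell 2.81-fold and Smim41 2.49-fold, each above background on 2 of 3 IL6_KO arrays. Map3k6, a kinase of the MAP kinase cascade, was 9.11 and 8.99 in WT, 7.41, 6.87 and 7.81 in IL6_KO and 9.19 to 9.37 in sgp130Fc. It fell 3.20-fold, and its IL6_KO level was also below sgp130Fc (adjusted p = 0.00796). Kcnh2, a voltage-gated potassium channel known from heart muscle, was 7.30 and 7.48 in WT and 4.93, 4.45 and 5.06 in IL6_KO, above background on 1 of the 3, and fell 5.97-fold (adjusted p = 0.012). Of 4 probes of Lsm12, an RNA-binding protein of the LSM family, 1 fell by 2.03 and the other 3 did not pass. Retn, which encodes the adipokine resistin, lay at 7.28 and 6.80 in WT and at 4.99, 4.63 and 5.66 in IL6_KO, above background on 1 of the 3, and fell 3.85-fold. In sgp130Fc Retn lay at 5.26 to 5.64, within the IL6_KO range.

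Genes that glucocorticoids and FOXO transcription factors induce in fasting and stress lay lower in IL6_KO. Of the 20 tested genes of this group 4 fell and 0 rose, 20.0% against 0.194% of all genes by their brightest probe for the lower direction. The members were chosen with earlier results of these data known, so this share is a description and no test. The median of the 20 was -0.52, and all IL6_KO arrays lay below both WT arrays for 12 of them (60.0% against 21.2% of all genes). Fam107a, a stress-induced actin-binding protein, lay at 6.63 and 6.94 in WT and 4.61, 4.80 and 4.58 in IL6_KO, where no array was above background, at least 3.40-fold lower (adjusted p = 0.00204). Depp1, a FOXO target, was 9.83 and 9.15 in WT and 6.74, 7.49 and 7.20 in IL6_KO, and fell 5.08-fold (adjusted p = 0.0199). Ddit4, which encodes the mTORC1 inhibitor REDD1, was 9.83 and 9.58 against 8.30, 7.73 and 8.22, and fell 3.09-fold (adjusted p = 0.025). All 3 IL6_KO arrays lay below both WT arrays for each of these genes. Fkbp5, a co-chaperone of the glucocorticoid receptor, was 8.13 and 8.34 in WT and 7.10, 6.68 and 6.82 in IL6_KO, and fell 2.59-fold (adjusted p = 0.0384).

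The same genes also differed between IL6_KO and sgp130Fc, where the 4 that fell lay at or above WT. Depp1 lay at 10.51, 10.95 and 10.66 in sgp130Fc, Ddit4 at 10.96, 10.95 and 11.15, and Fkbp5 at 9.35, 9.14 and 9.49. Against sgp130Fc 8 of the 20 genes were lower in IL6_KO and 0 higher, 40.0% against 0.949% of all genes. Beside the 4 above these were Tsc22d3, a glucocorticoid-induced leucine zipper protein (-1.58, adjusted p = 0.00569), Pdk4, which restrains glucose oxidation in fasting (-2.56, adjusted p = 0.011), Lcn2, an iron-binding acute-phase protein (-2.26, adjusted p = 0.037), and the clock gene Per1. Both comparisons use the same IL6_KO arrays and the same chosen members, and are not independent. The 4 genes that fell also passed without IL6_KO replicate 2, Fkbp5 narrowly (adjusted p = 0.04996), with a group median of -0.37. Depp1, Ddit4 and Fkbp5 did not pass in most of the fits that left out 1 of the 8 arrays. Clock genes are given beside them. Of 15 tested clock genes 0 passed against WT, with 6 positive and 9 negative differences (median -0.08, and -0.32 without IL6_KO replicate 2). Against sgp130Fc Per1, Per2 and Ciart were lower (20.0% against 0.949% of all genes) and Arntl and Bhlhe40 higher (13.3% against 0.490%). Per2 lay at 7.33, 7.93 and 7.33 in IL6_KO and at 10.08, 10.33 and 10.32 in sgp130Fc. The part of the clock genes in this result was not tested.

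**Figure D2:**
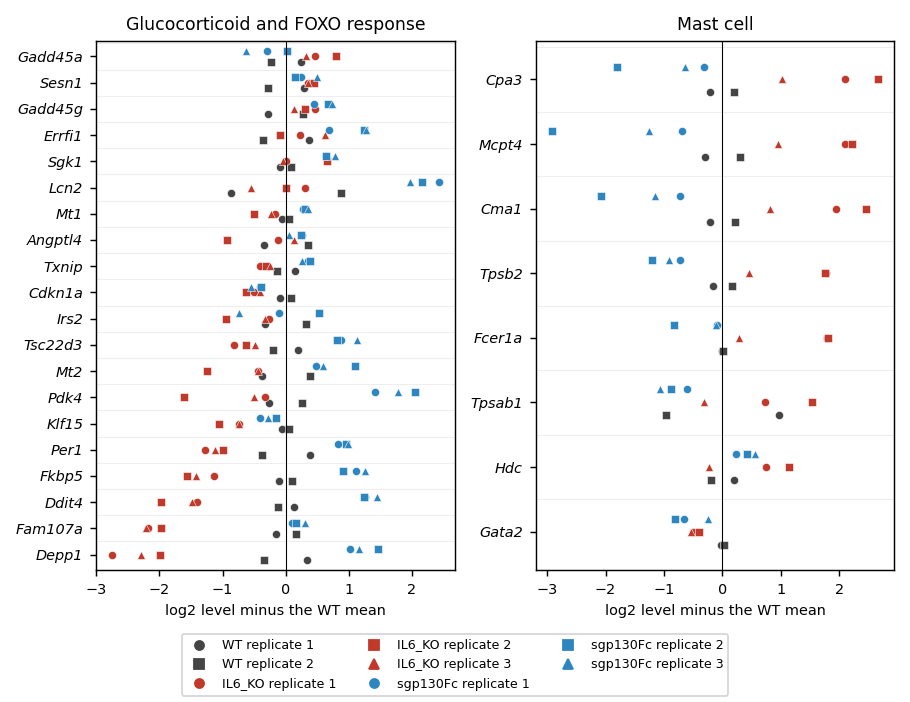
Every tested gene of the glucocorticoid and FOXO group (left) and of the mast cell group (right) on each of the 8 arrays, as log2 level minus the WT mean. On the left the IL6_KO points of Depp1, Fam107a, Ddit4 and Fkbp5 lie below WT and sgp130Fc, and on the right the IL6_KO points of Cpa3, Mcpt4, Cma1, Tpsb2 and Fcer1a lie above WT and sgp130Fc, with replicate 3 nearest to WT.

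Blood and vessel genes were lower. Of 7 tested erythroid genes 3 fell and 0 rose (42.9% against 0.194% of all genes for the lower direction), with a median of -1.90, or -1.77 without IL6_KO replicate 2. Alas2, the erythroid enzyme that starts haem synthesis, was 11.48 and 9.77 in WT, 6.41, 6.02 and 7.60 in IL6_KO and 9.17 to 9.85 in sgp130Fc. It fell 15.4-fold (adjusted p = 0.0406), although the 2 WT arrays lay 1.71 apart on the log2 scale. Of the beta globin genes, Hbb-bt went from 12.29 and 11.78 to 9.15, 9.22 and 10.17 and fell 5.74-fold (adjusted p = 0.025), and Hbb-b2, above background on 1 of 3 IL6_KO arrays, fell 3.74-fold. These copies are nearly identical and their probes cannot be assigned to 1 copy with certainty. All 3 were also lower in IL6_KO than in sgp130Fc (adjusted p = 0.0102, 0.023 and 0.0372 for Hbb-bt, Hbb-b2 and Alas2). Without IL6_KO replicate 2, Hbb-bt still passed against WT (adjusted p = 0.0431), whereas Alas2 (0.0523) and Hbb-b2 (0.0667) did not. The anion exchanger of the red cell membrane, Slc4a1, differed by -3.16 (adjusted p = 0.0697).

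Endothelial genes lay lower throughout. Nos3, the endothelial nitric oxide synthase, had 3 probes, with differences of -2.46, -2.50 and -2.46, of which the first 2 passed (adjusted p = 0.026 and 0.0476) and the brightest did not (0.066). On the probe of smallest p it lay at 8.76 and 9.10 in WT, 6.56, 5.85 and 7.00 in IL6_KO and 7.90 to 8.37 in sgp130Fc. By their brightest probes 0 of 17 endothelial genes passed, all 17 differences were negative and for 16 all IL6_KO arrays lay below both WT arrays (94.1% against 21.2% of all genes). Their median was -0.88, and -0.64 without IL6_KO replicate 2, when all 17 remained negative. Against sgp130Fc 6 of the 17 were lower (35.3% against 0.949%), among them Rasip1, a regulator of vessel tube formation (adjusted p = 0.0094), the guidance receptor Robo4 (adjusted p = 0.028) and the transcription factor Sox17 (adjusted p = 0.0172). Of 11 smooth muscle and pericyte genes 0 passed, 9 were negative and the median was -0.64 (-0.57 without IL6_KO replicate 2). The smooth muscle myosin Myh11 lay at 7.74 and 7.69 in WT and 6.56, 5.90 and 6.47 in IL6_KO (adjusted p = 0.053 against WT and 0.0342 against sgp130Fc).

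Macrophage products were among the higher genes. Mmp12, the macrophage elastase, was 10.81 and 10.97 in WT and 13.10, 13.72 and 12.63 in IL6_KO, and rose 4.79-fold (adjusted p = 0.0476). The cathepsin K gene Ctsk, whose product degrades collagen, was 10.78 and 11.46 against 12.83, 13.50 and 12.67, and rose 3.68-fold. Il1rn, the antagonist of the IL-1 receptor, was 7.32 and 7.60 against 10.06, 10.28 and 9.04, and rose 5.05-fold. In each of these the IL6_KO arrays were clear of both other groups, and Mmp12 and Ctsk also passed against sgp130Fc (adjusted p = 0.0473 and 0.038). Cd300ld, an activating receptor of myeloid cells, lay at 9.26, 10.71 and 9.09 in IL6_KO and at 6.74 and 4.79 in WT, where 1 of 2 arrays was above background, and at 8.27 to 8.41 in sgp130Fc (IL6_KO minus WT 3.92, adjusted p = 0.0476). Cyba, which encodes the p22phox subunit of the phagocyte NADPH oxidase, was 11.40 and 11.66 in WT and 12.62, 12.93 and 12.52 in IL6_KO, and rose 2.24-fold. The share that rose was 25% of the 4 tested subunits, against 0.102% of all genes by their brightest probe. The other 3 tested subunits did not pass and were positive, with Ncf4 at 1.20 (adjusted p = 0.078), Ncf1 at 1.53 (adjusted p = 0.095) and Rac2 at 1.05 (adjusted p = 0.181). Without IL6_KO replicate 2, Ctsk and Cd300ld still passed (adjusted p = 0.0437 and 0.0483). Mmp12, Il1rn and Cyba did not pass without that array (adjusted p = 0.0542, 0.0609 and 0.0552).

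Another 5 genes rose. Abcb4, a floppase that moves phosphatidylcholine across membranes, was 6.81 and 6.93 in WT and 8.10, 8.46 and 8.44 in IL6_KO (2.76-fold, adjusted p = 0.0199). Evi2 was 6.07 and 6.20 against 7.82, 7.91 and 7.43 (3.00-fold, adjusted p = 0.0228). Kansl1l was 5.13 and 5.04, above background on 1 of 2 WT arrays, against 6.24, 6.55 and 6.60 (2.60-fold), and lay at 6.64 to 7.00 in sgp130Fc. Prss46, a serine protease gene, rose 3.87-fold and the kininogen gene Kng2 2.36-fold. Of these, Abcb4 and Evi2 were also higher in IL6_KO than in sgp130Fc (adjusted p = 0.0345 and 0.0372).

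Each of the 31 genes was set against sgp130Fc as well. In that comparison 177 of 14141 probes passed (1.25%), and it shares the IL6_KO arrays with the comparison against WT. Of the 21 genes lower than in WT 12 were also lower than in sgp130Fc, and of the 10 higher genes 5 were also higher. The remaining 14 did not pass. For Gbp2b, an interferon-inducible GTPase, IL6_KO and sgp130Fc differed by -0.04 (95% interval -1.15 to 1.07). Gbp2b lay at 10.48 and 8.15 in WT, at 4.60, 4.55 and 4.68 in IL6_KO with no array above background, and at 4.42, 4.41 and 5.12 in sgp130Fc with 1 of 3 above background. It was at least 19.6-fold lower in IL6_KO than in WT (adjusted p = 0.0199), and its probe may also read related guanylate-binding genes. For Lsm12 the difference from sgp130Fc was 0.06 (95% interval -0.54 to 0.65).

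The pan-macrophage, lipid-associated macrophage and lysosome groups lay higher as a whole, although few members passed. All 16 tested pan-macrophage genes had positive differences, with a median of 0.90 (0.74 without IL6_KO replicate 2), and for 14 all IL6_KO arrays lay above both WT arrays (87.5% against 18.8% of all genes). The transcription factor Spi1, which specifies the lineage, was 6.58 and 6.60 in WT and 8.13, 8.06 and 7.46 in IL6_KO (adjusted p = 0.065). Tyrobp, the adaptor of activating myeloid receptors, was 10.15 and 10.59 against 11.46, 12.15 and 11.45 (adjusted p = 0.070). Both were clear of the WT arrays. In the lipid-associated macrophage group 2 of 18 rose, Mmp12 and Ctsk, against 0.102% of all genes for the higher direction, with a group median of 0.85 (0.63 without IL6_KO replicate 2). Dcstamp, which macrophages need to fuse, was 5.77 and 6.59 in WT, 8.64, 8.83 and 7.40 in IL6_KO and 5.53 to 6.20 in sgp130Fc (adjusted p = 0.078 against WT and 0.0243 against sgp130Fc). The lysosome group had 21 of 22 differences positive and a median of 0.48 (0.30 without IL6_KO replicate 2), with 0 passing. Resident macrophage genes had 12 of 18 negative differences, against 4926 of 9803 for all genes. Their median was -0.36 (-0.29 without IL6_KO replicate 2, and -0.0246 without WT replicate 1). Relative to each gene's mean over 8 arrays, WT replicate 2 had a group median of -0.17. This lay within the IL6_KO range of -0.29 to -0.02, whereas WT replicate 1 lay at 0.47. The haemoglobin scavenger receptor Cd163 lay at 9.13 and 8.51 in WT, 7.40, 6.49 and 8.05 in IL6_KO and 9.96 to 10.38 in sgp130Fc (adjusted p = 0.115 against WT and 0.0111 against sgp130Fc).

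Mast cell genes had the highest median of the 48 groups, 1.31 over 8 tested genes, and 1.08 without IL6_KO replicate 2. None passed against WT, and for 5 of the 8 all IL6_KO arrays lay above both WT arrays (62.5% against 18.8% of all genes). Cpa3, the carboxypeptidase of mast cell granules, was 8.16 and 8.57 in WT, 10.47, 11.03 and 9.40 in IL6_KO and 8.06, 6.57 and 7.74 in sgp130Fc. Mcpt4, a chymase, was 7.56 and 8.16 in WT, 9.95, 10.07 and 8.81 in IL6_KO and 7.17, 4.94 and 6.60 in sgp130Fc. Cma1, another chymase, was 7.21 and 7.64 in WT and 9.37, 9.87 and 8.24 in IL6_KO. In all 3 genes IL6_KO replicate 3 was the lowest of its group and still above every WT and sgp130Fc array. Against sgp130Fc Cpa3 (adjusted p = 0.027), Mcpt4 (0.027), Cma1 (0.018) and the tryptase gene Tpsb2 (0.020) were higher, 50% of the 8 against 0.490% of all genes. Gata2, a transcription factor that mast cells share with other cells, went against the rest, at 7.58 and 7.64 in WT and 7.07 to 7.21 in IL6_KO. Tryptase copies are similar in sequence, and Tpsb2 and Tpsab1 may share signal.

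Fat cell genes lay lower, and lowest on IL6_KO replicate 2. Retn alone of the 18 adipocyte markers passed (5.56% against 0.194% of all genes for the lower direction). Without IL6_KO replicate 2 Retn did not pass (adjusted p = 0.0552). Of the 18 differences 16 were negative, against 4926 of 9803 for all genes. For 12 of the 18 all IL6_KO arrays lay below both WT arrays (66.7% against 21.2% of all genes). The median was -0.99, which became -0.47 without IL6_KO replicate 2. The 20 lipogenesis genes had 0 passing, 19 negative and a median of -1.01, or -0.57 without it. Fasn, the fatty acid synthase, was 8.42 and 8.75 in WT and 6.84, 6.23 and 7.55 in IL6_KO (adjusted p = 0.0737). In insulin signalling 0 of 17 passed and the median was -0.40 (-0.28 without that array). Pck1, which makes glycerol phosphate for fat storage and is repressed by insulin, was 7.83 and 7.31 against 6.36, 5.43 and 6.23 (adjusted p = 0.070). The insulin-responsive glucose transporter Slc2a4 was 8.92 and 8.56 against 7.49, 6.39 and 7.70 (adjusted p = 0.109). Branched-chain amino acid breakdown had 15 of 16 negative and a median of -0.46 (-0.29 without that array), with Bckdha, a subunit of its rate-setting dehydrogenase, at 10.65 and 10.19 against 9.63, 9.17 and 9.76. Respiratory chain genes had 22 of 23 negative at a median of -0.23, and of -0.12 without that array. Cholesterol synthesis had a median of -0.41, and of -0.04 without that array.

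**Figure D3:**
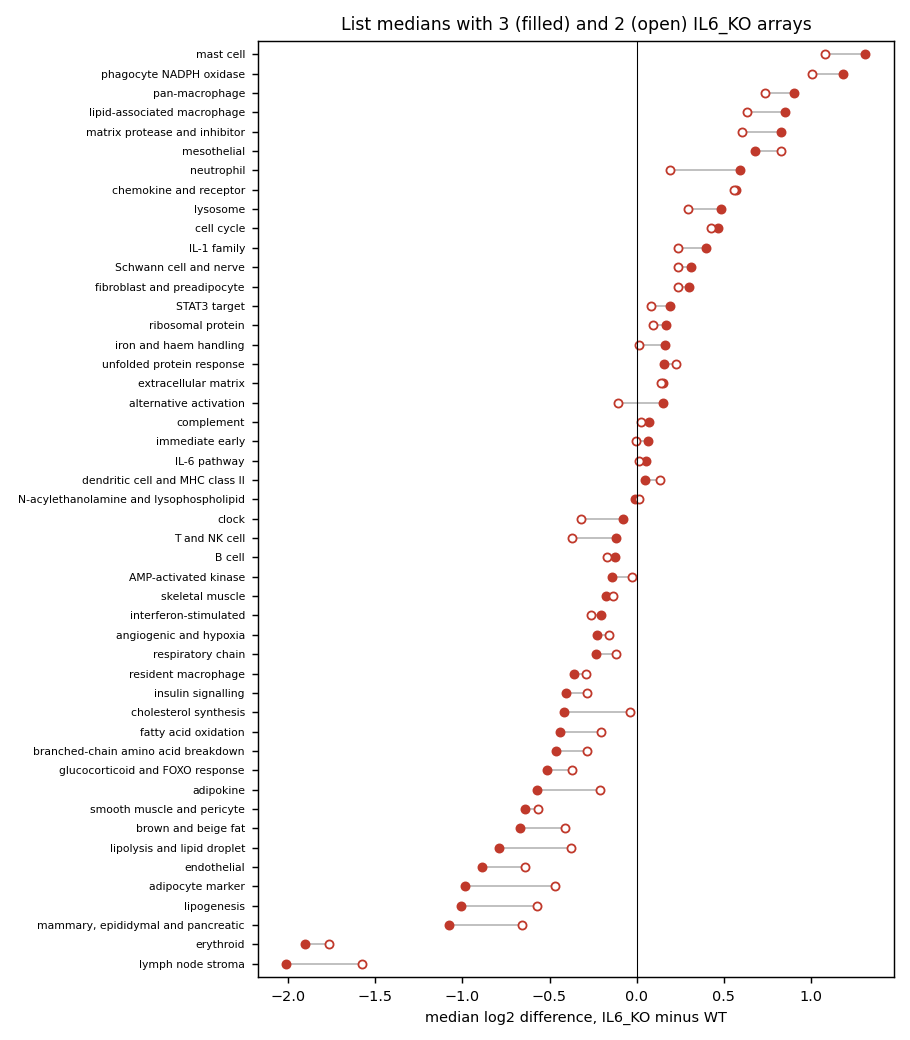
Median log2 difference between IL6_KO and WT over the tested genes of each of the 48 gene groups, with all 3 IL6_KO arrays (filled) and without IL6_KO replicate 2 (open). Adipocyte markers moved from -0.99 to -0.47 and cholesterol synthesis from -0.41 to -0.04, whereas mast cell genes stayed above 1 and erythroid genes below -1.

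Group levels on single arrays show the same spread. Relative to each gene's mean over 8 arrays, the adipocyte median was 0.37 and 0.36 in WT and -0.18, -1.25 and 0.05 in IL6_KO. The neutrophil median was -0.39, 1.54 and -0.32 in IL6_KO and -0.33 and -0.42 in WT, so that only replicate 2 stood clear of WT. For the erythroid group all 3 IL6_KO arrays, at -1.16, -1.39 and -0.75, lay below WT at 1.05 and 0.64. The glucocorticoid and FOXO group lay at 0.01 and 0.02 in WT and at -0.37, -0.73 and -0.35 in IL6_KO. Mesothelial genes, which mark the lining of visceral fat, differed most between the WT arrays themselves, at 0.30 and -0.94, against 0.53, 0.17 and 0.61 in IL6_KO.

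**Figure D4:**
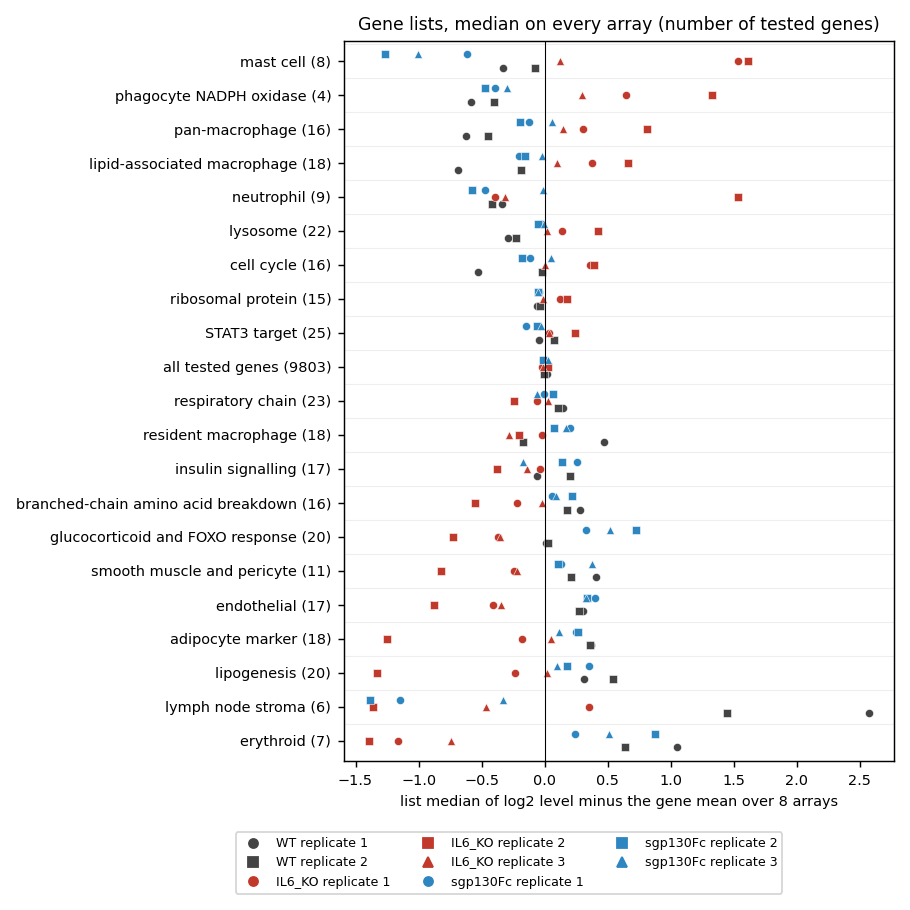
Median level of 20 gene groups and of all tested genes on each of the 8 arrays (log2 level minus the gene's mean over 8 arrays), with the number of tested genes in brackets. The IL6_KO arrays lie to the right of WT for the mast cell, pan-macrophage and lipid-associated macrophage groups. They lie to the left for endothelial and erythroid groups and overlap WT for resident macrophage genes. Replicate 2 is the outermost IL6_KO array in most rows.

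Genes that IL-6 is known to drive did not pass. Of 25 STAT3 targets 0 passed, 16 were positive and the median was 0.19, or 0.08 without IL6_KO replicate 2. Socs3 was 7.67 and 8.09 in WT and 8.21, 8.32 and 8.56 in IL6_KO (adjusted p = 0.26), and was higher in IL6_KO than in sgp130Fc (adjusted p = 0.017). For the IL-6 pathway itself 16 genes were tested, 9 positive and 7 negative (median 0.05, and 0.0144 without IL6_KO replicate 2). Orm1, an acute-phase protein that IL-6 induces in the liver, was 12.38 and 12.51 in WT and 11.03, 9.57 and 11.88 in IL6_KO (adjusted p = 0.155). All 16 cell cycle genes were positive at a median of 0.47 (0.43 without IL6_KO replicate 2), and Top2a, the topoisomerase of dividing cells, was 6.70 and 7.05 in WT and 8.20, 7.89 and 7.53 in IL6_KO (adjusted p = 0.103). Of 22 interferon-stimulated genes Gbp2b fell (4.55% against 0.194% of all genes for the lower direction) and 21 did not pass. Their median was -0.21 (-0.26 without IL6_KO replicate 2). Lymph node stroma, whose 6 tested genes include 3 near-identical copies of the lymphoid chemokine Ccl21, had the lowest median, -2.01 (-1.58 without IL6_KO replicate 2). Ccl21a was 11.46 and 9.95 in WT, 8.11, 6.35 and 7.25 in IL6_KO and 5.25 to 7.33 in sgp130Fc (adjusted p = 0.078), and the B cell attractant Cxcl13 overlapped, at 8.06 and 5.73 in WT and 4.74 to 8.43 in IL6_KO.

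Other genes with large differences did not pass. Vsig8, an immunoglobulin-domain protein, was 6.05 and 7.22 in WT and 9.75, 11.22 and 9.23 in IL6_KO (3.44, adjusted p = 0.053). Clec4d, a myeloid lectin receptor, was 7.46 and 7.68 against 11.16, 12.33 and 9.51 (3.43, adjusted p = 0.0697). Clec7a, the beta-glucan receptor dectin-1, was 6.45 and 6.87 against 9.08, 10.41 and 8.67 (2.73, adjusted p = 0.058). All 3 were clear of both WT arrays and were highest on IL6_KO replicate 2. Itgad, an integrin of macrophages, was 4.98 and 6.81 against 8.81, 7.89 and 8.98, and lay higher still in sgp130Fc, at 9.05 to 9.85. On the lower side, Reln, an extracellular glycoprotein, was 8.72 and 7.13 against 5.41, 4.98 and 5.52 (adjusted p = 0.065), and Timp4, a metalloprotease inhibitor of fat, was 11.25 and 10.47 against 8.63, 6.51 and 9.63 (adjusted p = 0.137).

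Of the 31 genes 5 lie on chromosome 5, as Il6 does, and so do 624 of the tested genes. In the RefSeq gene order of GRCm38.p6 all 5 precede Il6: Prkag2 by 7 tested genes, Nos3 by 19, Kcnh2 by 20, Napepld by 33 and Abcb4 by 50. Of the tested genes 64 precede Il6 on the chromosome and 559 follow it, and 0 of the latter passed. Reln, 29 tested genes before Il6, differed by -2.62 and did not pass.

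**Figure D5:**
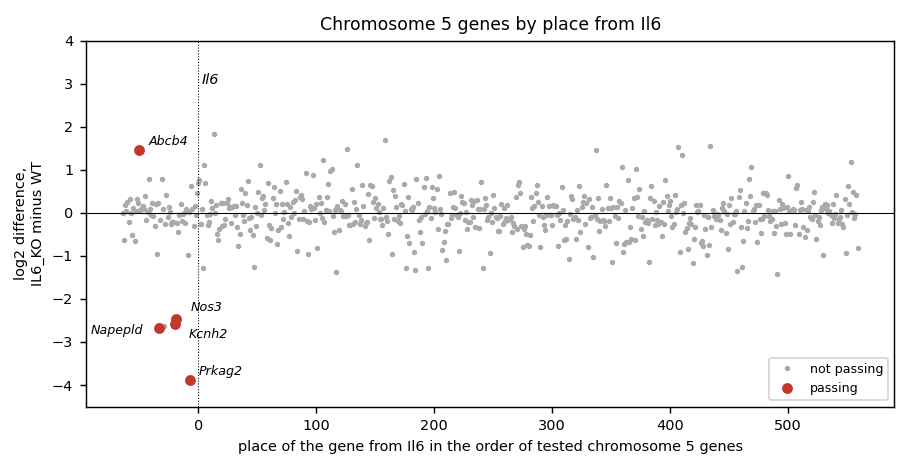
Log2 difference between IL6_KO and WT of each tested gene of chromosome 5 (vertical axis) by its place from Il6 in the gene order (horizontal axis), with the 5 genes that passed in red. Of these, 4 lie below -2 and within 33 places of Il6, and Abcb4 lies above 1 at 50 places.

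The number of calls rested on single arrays. Leaving out 1 of the 8 arrays at a time gave between 6 and 777 passing probes, with 8 without IL6_KO replicate 1, 50 without replicate 2 and 777 without replicate 3, and 19 and 16 without WT replicates 1 and 2. The sgp130Fc arrays, which enter through the shared estimate of the spread, gave 7, 6 and 11. Prkag2, Gdpd3, Napepld and Fam107a passed each time, and 21 of the 31 genes passed without IL6_KO replicate 2. For Napepld this holds for the probe of smallest p, and its brightest probe did not pass each time.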

How the data were processed

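Gene expression was measured in 8 adipose samples, of which 5 enter the comparison described. The authors deposited an intensity per probe with a detection p-value, per the file headers, and normalised log2 values, and the submitters' processing notes name GenomeStudio and limma without versions. RNA was cleaned on Bioline columns with DNAse I and labelled with the MessageAmp kit, per the labels' protocols. The deposited log2 values were used as given, and neqc run on the deposited intensity differed from them by at most 0.0548. Probes with a detection p-value under 0.05 on at least 2 arrays were tested, 14141 of 25697. All 8 arrays entered 1 linear model of the 3 groups in limma 3.58.1 (R 4.3.3, lmFit and eBayes; two-sided, 8.97 degrees of freedom, 3.97 of them prior), with Benjamini-Hochberg adjustment over all probes. The same samples and model gave the difference between IL6_KO and sgp130Fc.

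Where the dimmer group was never detected, folds are lower bounds against the lowest detected signal of its arrays, written "at least". The 48 gene groups hold 929 entries (1 unmatched), with each gene read by its brightest probe. The members, groups, named genes and motifs were chosen with earlier results of these data known. Named genes are the receptor genes, all that passed, the 10 extremes in each direction, up to 4 members of smallest p per group and a fixed set, and others were named after their values were seen. Symbols came from the platform annotation (23978 probes with 1 symbol, 1719 with none, 0 with several), and 23962 matched RefSeq of GRCm38.p6. Promoter windows are RefSeq sequences. The model was tested on simulated data. The alternatives were other background correction, offset, scaling, filters, variance models, sample sets, a replicate block and leaving out each array.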

Additional observations from a re-analysis of the deposited data

How the results depend on the processing

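The values rest on 2 WT arrays and on probes that are dim in 1 group, and a log2 difference of a dim probe has little signal over background behind it. The count of 35 passing probes was 35 with neqc run anew, 37 with an offset of 50, 37 with 1 probe per gene and 31 when arrays were scaled to their 75th percentile. It was 20 with quantile normalisation without background correction, 9 with no detection filter, 13 with detection on all 8 arrays, 64 with an intensity trend, 5 with the compared arrays alone and 273 with array weights (164 higher and 109 lower), whose estimation stopped before it converged. With the replicate number as a block it was 12. Deviations of same-numbered samples from their group means had correlations of -0.26 and 0.05 between WT and IL6_KO. The deviations of the 2 WT arrays are mirror images, so these values cannot show whether the numbers pair the samples. Leave-one-out fits gave 6 to 777 probes. The count of 177 probes passing against sgp130Fc became 107 with no detection filter (97 of them among the 177), 1735 with array weights (177 among them), 79 with the replicate block (73 among them) and 24 to 495 with 1 array left out. Without background correction the group medians that moved by more than the spread between replicates were chemokine and receptor 0.28, insulin signalling -0.11, brown and beige fat -0.25, erythroid -1.26, skeletal muscle -0.0533, mammary, epididymal and pancreatic -0.42 and glucocorticoid and FOXO response -0.34. With an offset of 50 they were chemokine and receptor 0.40, insulin signalling -0.21 and erythroid -1.27. With scaling to the 75th percentile the one that moved was ribosomal protein 0.0727. With no detection filter they were chemokine and receptor 0.40, insulin signalling -0.20, brown and beige fat -0.11, erythroid -0.84, lymph node stroma -0.26, fibroblast and preadipocyte 0.18, Schwann cell and nerve 0.0383, mammary, epididymal and pancreatic 0.0003, unfolded protein response 0.0515 and iron and haem handling 0.24. With detection on all 8 arrays they were alternative activation -0.14, AMP-activated kinase 0.0278, brown and beige fat -1.17, lymph node stroma -3.32, fibroblast and preadipocyte 0.20 and mesothelial 1.55. With array weights they were IL-6 pathway -0.0117, AMP-activated kinase 0.0081, N-acylethanolamine and lysophospholipid 0.0759, B cell 0.20, fibroblast and preadipocyte 0.19 and iron and haem handling 0.0816. With the replicate block they were dendritic cell and MHC class II -0.12 and unfolded protein response 0.052. With 1 array left out, the medians of these groups ranged as follows: B cell -0.17 to 0.32, IL-6 pathway 0.0144 to 0.14, N-acylethanolamine and lysophospholipid -0.0862 to 0.15, STAT3 target 0.0107 to 0.38, alternative activation -0.11 to 0.25, angiogenic and hypoxia -0.31 to 0.0753, cell cycle 0.28 to 0.75, clock -0.32 to 0.0436, dendritic cell and MHC class II -0.10 to 0.13, endothelial -0.95 to -0.64, extracellular matrix 0.0674 to 0.31, glucocorticoid and FOXO response -0.70 to -0.37, immediate early -0.15 to 0.30, insulin signalling -0.48 to -0.19, interferon-stimulated -0.61 to 0.17, iron and haem handling 0.0107 to 0.33, lipid-associated macrophage 0.53 to 1.20, lymph node stroma -2.96 to -1.53, lysosome 0.30 to 0.62, matrix protease and inhibitor 0.42 to 0.92, mesothelial 0.14 to 1.29, resident macrophage -0.69 to -0.0246, skeletal muscle -0.46 to -0.14 and unfolded protein response 0.10 to 0.22. Single genes that did not pass and changed sign were Camp -0.36 (array weights) and -0.70 to 1.25 with 1 array left out, Cxcl13 0.77 (array weights) and -1.86 to 0.47 with 1 array left out, Lcn2 0.15 (array weights), 0.0935 (replicate block) and -0.95 to 0.79 with 1 array left out, Saa3 -0.21 (array weights) and -0.76 to 1.14 with 1 array left out and Tpsab1 -0.32 to 1.62 with 1 array left out. The causes were not tested. Of the other recomputed differences of single genes, 1702 kept direction and side of the threshold, 285 no longer passed and 100 newly passed. They came from 112 probes of named genes, most of which did not pass with the main settings. Only probes that passed with the main settings could be among the 285, so the 1702 do not show how often a passing call held.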

Other observations

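The 2 WT arrays differed most in a few single genes. The nucleosome-binding gene Hmgn5 lay at 7.51 on WT replicate 1 and 4.55 on replicate 2, against 7.66, 7.52 and 7.69 in IL6_KO. Htatsf1, a transcription elongation cofactor, lay at 10.21 and 7.40 on the WT arrays and at 9.82 to 10.02 in IL6_KO. Cck, which encodes cholecystokinin, lay at 4.47 and 7.47 on the WT arrays and at 4.32 to 6.00 in IL6_KO. The mesothelial gene Upk3b lay at 8.56 and 5.89 in WT and at 8.48 to 9.04 in IL6_KO.

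The iron hormone gene Hamp lay at 7.12, 5.80 and 9.64 in IL6_KO, at 7.03 and 4.56 in WT and at 4.41 to 4.73 in sgp130Fc. The elongation factor gene Eef1a2, known from muscle and nerve, lay at 6.87, 8.59 and 5.03 in IL6_KO and was not above background on either WT array. Retnlg, a resistin-like gene of neutrophils, lay at 5.52, 7.82 and 4.71 in IL6_KO and was likewise not above background in WT. None of these genes passed.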
